A study of Rattus norvegicus with 6 samples.

Results

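The genes described here are 44 genes of glucose uptake, glycolysis, lactate handling, glycogen metabolism, the pentose phosphate pathway and the glycerol 3-phosphate shuttle. They were taken by name from the 23096 genes of the deposited table, where they fill 45 rows because Aldoa has 2. All 45 rows reached a normalised count of 10 in 3 or more libraries, the filter for testing, as did 13110 genes in all.

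RNA was sequenced from cultured ventricular cardiomyocytes of Wistar rat embryos (stage E18.5), in 6 libraries. The 3 vehicle libraries came from cells given dimethyl sulfoxide (DMSO), and the 3 ATRA libraries from cells given 10 µM all-trans retinoic acid, the ligand of the retinoic acid receptors, both for 48 h. All cells were primary cells without a genetic change named in the labels, had been pre-plated to reduce fibroblasts, and were kept on laminin in medium with fetal bovine serum and vitamin B12. Whether a group's 3 libraries stem from separate isolations is not in the labels, so the p-values rest on the spread among these libraries alone, which may be technical.

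Glycolysis splits glucose into pyruvate, which lactate dehydrogenase exchanges with lactate and which monocarboxylate transporters carry across the plasma membrane together with lactate. Several steps have a gene used mainly in striated muscle and another used in most tissues, such as Pgam2 and Pgam1 or Pygm and Pygb. The fetal heart draws much of its energy from glucose and lactate and holds large glycogen stores, and after birth the heart turns towards fatty acids.

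The libraries held 25434878 to 32052035 reads, recovered from the normalised counts, and 15969 to 16329 detected genes. No pair of libraries was a duplicate, and the vehicle libraries differed from each other more than the ATRA libraries did, with a chi-square per degree of freedom of 23.29 to 49.18 against 2.61 to 3.45. Cardiomyocyte markers were abundant throughout: the normalised counts of 12 of them, among them Tnnt2 and Myh6, summed to 1067869 to 1433266 in the vehicle libraries and 1772658 to 1829686 in the ATRA libraries. Of these, 5 were called higher, 1 (Myh7) lower and 6 not called, where 20.3% of all genes tested were called higher and 18.9% lower. The sum of 14 fibroblast markers was 344106, 268363 and 166477 in vehicle replicates 1 to 3 and 147308 to 152545 under ATRA. Of the fibroblast markers, 2 (Dcn and Fbln1) were called higher, 6 lower and 5 not called, and Mfap5 was not tested. Epicardial markers (5 genes) summed to 1218.0 to 2033 and 886 to 920.1, with 4 called lower and 1 not called. Smooth muscle and pericyte markers (9 genes) summed to 91856 to 115385 and 217438 to 226104, with 5 called higher and 2, Pdgfrb and Mustn1, lower. Endothelial markers (8 genes) summed to 623 to 1130.4 and 1273 to 1439, with 1 higher (Kdr), 2 lower (Tek and Egfl7) and 4 not called, and the sum without Kdr, taken after the values were seen, was 329 to 825 in vehicle and 279.7 to 341 under ATRA. Immune markers (8 genes) summed to 223 to 273 and 304 to 423, with Csf1r called higher and Cd14 lower, and the sum without Csf1r was 101.1 to 183 and 37.4 to 55.8. Ptprc, Adgre1, C1qa and C1qb were under 10 in every library. Vehicle replicate 3 had the lowest vehicle level of 13 of the 14 fibroblast markers and was nearest the ATRA libraries in the cardiomyocyte, fibroblast and epicardial sums. The part of these markers in the results below was not tested, and in such bulk RNA fewer cells of a type and less RNA per cell cannot be told apart.

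Under ATRA, transcripts of all 3 monocarboxylate transporters, 3 of 4 glucose carriers, all 3 phosphofructokinases, the muscle phosphoglycerate mutase Pgam2, glycogen synthase and 2 of 3 glycogen phosphorylases were higher. Hk2 and 2 of 3 genes of the glycerol 3-phosphate shuttle were lower, and none of 4 pentose phosphate genes was called. Of the 45 rows, 25 were higher and 3 lower than in vehicle at an adjusted p under 0.05, and 17 were not called; among all genes tested, 20.3% were called higher and 18.9% lower. The median log2 fold change was 0.31 over the 45 rows and 0.00 over all genes tested. In 31 rows every ATRA library lay above every vehicle library and in 6 rows below, against 27.6% and 26.2% of all genes. Most changes were small: by the ratio of group means, 24 of the 28 called rows moved by less than 2-fold and 4, Slc16a12, Slc16a3, Pgam2 and Gpd1, by more, and 17 rows were called higher and 1 lower with a log2 change of at least 0.5, against 8.82% and 11.3% of all genes. In the authors' deposited table, 27 of the 45 rows were higher and 3 lower at an adjusted p under 0.05. The share of all genes called there was not counted. DESeq2 on the recovered reads also called 27 rows higher and 3 lower, with 2529 genes higher and 2462 lower in all.

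These counts depended on single libraries and on the scaling. Without vehicle replicate 3, 29 rows were called higher and 6 lower, where 26.3% and 23.7% of all genes were called. Without vehicle replicate 1 the counts were 26 and 5, against 19.6% and 16.9% of all genes. Without ATRA replicate 1 they were 22 and 1, against 13.1% and 12.6% of all genes. With each library scaled by its total alone, the median of all genes moved to -0.10 on the log2 scale, and 22 rows were called higher and 7 lower, against 13.4% and 28.8% of all genes. Of the 28 called rows, 21 were called in the same direction in all 16 alternatives. In vehicle replicate 3, 29 rows were above and 16 below the mean of vehicle replicates 1 and 2, with a median log2 difference of 0.10 against 0.00 over all genes. In 17 of the 25 rows called higher the highest vehicle value was that of vehicle replicate 3, as in 56.0% of all genes called higher.

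**Figure D1:**
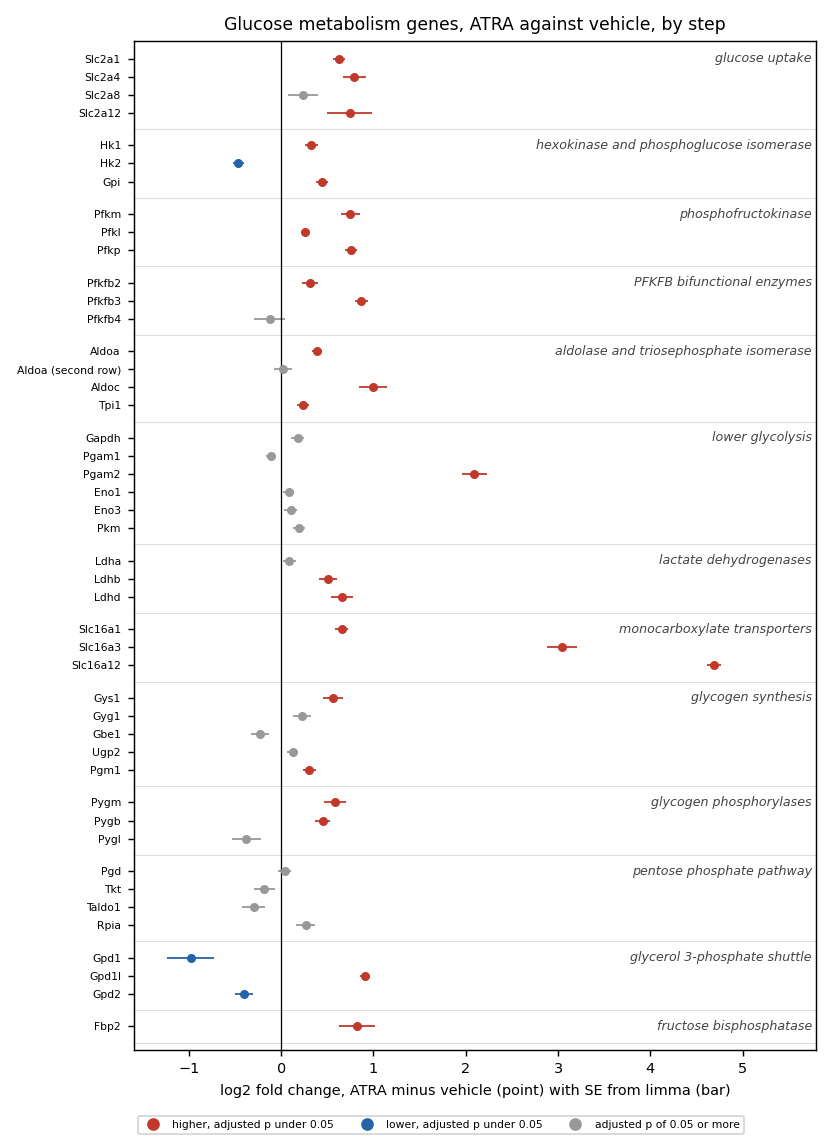
Log2 fold change of each gene, ATRA minus vehicle (x axis), with the SE from limma as bars, in pathway order (y axis). Red points were called higher, blue lower and grey not called at an adjusted p under 0.05. Slc16a12, Slc16a3 and Pgam2 have the largest rises, Gpd1 has the largest fall, and the 4 pentose phosphate genes are all grey.

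The monocarboxylate transporters showed the widest changes. Slc16a12, which encodes a transporter known for creatine, had normalised counts of 264, 239.6 and 295 in the vehicle libraries and 7006, 6768 and 6875 in the ATRA libraries. All 3 ATRA libraries lay far above all vehicle libraries and close to each other. Its mean went from 266 ± 27.6 to 6883 ± 119 (SD, n = 3). The rise was 25.9-fold, or 4.69 ± 0.08 (SE) on the log2 scale, at an adjusted p of 3.0e-08. Slc16a3 encodes MCT4, the transporter known for lactate export from highly glycolytic cells, and had normalised counts of 1867, 3169 and 2387 in the vehicle libraries and 20032, 19719 and 19896 in the ATRA libraries. The vehicle libraries spread over a wider relative range than the ATRA libraries, and the groups were far apart. Slc16a3 rose 8.04-fold, from 2474 ± 656 to 19882 ± 157 (log2 3.04 ± 0.16, adjusted p = 1.2e-05).

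Slc16a1 encodes MCT1, the widely expressed lactate and pyruvate carrier of the heart. Its normalised counts were 6735, 8126 and 7369 in the vehicle libraries and 11268, 11818 and 11820.3 in the ATRA libraries. The groups did not overlap, and Slc16a1 rose 1.57-fold (log2 0.65 ± 0.07, adjusted p = 0.00041). Per length, Slc16a1 stood at 77.1 ± 7.25 FPKM in vehicle and 121 ± 3.31 under ATRA, and Slc16a3 at 10.2 ± 2.70 and 81.9 ± 0.65. Slc16a1 therefore made up 90.11%, 86.62% and 88.63% of the summed FPKM of both genes in the vehicle libraries and 58.69%, 60.22% and 60.01% in the ATRA libraries. No ATRA library reached the vehicle range. The difference in mean share was -28.82 percentage points, and its exact two-sided permutation test gave p = 0.1, the smallest value that 3 against 3 libraries allow (0.167 adjusted over the 10 isoform shares compared). The summed FPKM of both genes was 2.33-fold higher under ATRA. Which gene was the larger under ATRA depended on the division by length. By mean normalised count Slc16a3 was above Slc16a1 under ATRA (19882 against 11635) and below it in vehicle (2474 against 7410). In the GRCr8 gene table Slc16a3 overlaps Csnk1d, a casein kinase, whose normalised count went from 4580.3 ± 53.0 to 6809 ± 133 (log2 0.57 ± 0.04, adjusted p = 8.0e-05). Whether reads were assigned by strand is not given in the sources used here, so that reads of overlapping genes cannot be told apart.

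Promoter sequences are shown for the genes with the largest rises, Slc16a12, Slc16a3 and Pgam2, and for Hk2, which was lower in all 16 alternatives, so that promoters of genes that rose stand beside that of a gene that fell. They were matched by name to RefSeq promoters of GRCr8. The sequences are the 250 bases before the gene start, 5′ to 3′ in the direction of the gene, at chr1:241621717-241621966 (minus strand), chr10:106712078-106712327 (plus strand), chr14:84897875-84898124 (minus strand) and chr4:116841276-116841525 (minus strand). Capitals mark a match to any motif searched.
Slc16a12: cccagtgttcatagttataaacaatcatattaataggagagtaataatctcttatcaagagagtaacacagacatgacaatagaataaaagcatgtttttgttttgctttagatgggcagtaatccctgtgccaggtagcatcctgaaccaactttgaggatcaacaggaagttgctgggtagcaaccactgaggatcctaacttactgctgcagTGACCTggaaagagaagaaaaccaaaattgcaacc
Slc16a3: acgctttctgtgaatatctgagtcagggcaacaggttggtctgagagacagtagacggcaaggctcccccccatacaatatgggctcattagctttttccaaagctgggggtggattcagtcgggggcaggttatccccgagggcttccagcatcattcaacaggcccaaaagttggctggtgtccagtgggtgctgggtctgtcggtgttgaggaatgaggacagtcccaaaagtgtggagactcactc
Pgam2: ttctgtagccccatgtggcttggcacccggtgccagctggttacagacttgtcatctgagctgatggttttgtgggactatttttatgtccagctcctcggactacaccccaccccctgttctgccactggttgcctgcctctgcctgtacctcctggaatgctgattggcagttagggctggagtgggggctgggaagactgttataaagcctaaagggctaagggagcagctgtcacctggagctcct
Hk2: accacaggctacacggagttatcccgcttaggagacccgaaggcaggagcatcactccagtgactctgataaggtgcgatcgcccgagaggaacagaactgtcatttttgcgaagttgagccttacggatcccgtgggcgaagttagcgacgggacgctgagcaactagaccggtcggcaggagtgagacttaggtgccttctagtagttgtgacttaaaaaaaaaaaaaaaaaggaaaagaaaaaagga
The capitals in Slc16a12, at positions -35 to -30 before the start, spell AGGTCA on the other strand, a hexamer bound by nuclear receptors, and the other 3 windows held no match to the motifs searched. No match says only that these letters are not in this window. Of the 44 members, 40 were in the promoter table. Members were counted by gene name and the background by promoter, and the background was not limited to genes expressed here. ACGTG and GCGTG are the core letters of hypoxia response elements. Over both strands, either stood in windows of 24 of the 40 members (60%), against 36.7% of all 33469 promoters. CACGTG, which contains ACGTG, stood in 4 members (10%) against 5.59%. AGGTCA stood in 5 members (12.5%), Aldoa, Ldhb, Pfkfb2, Pfkfb4 and Slc16a12, against 14.1%. Direct repeats of AGGTCA spaced by 5 or 2 bases, which contain that hexamer, stood in 0 members and in 3 and 0 of all promoters. Slc2a4, Gpd1, Gpd1l and Fbp2 were not in the table.

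**Figure D2:**
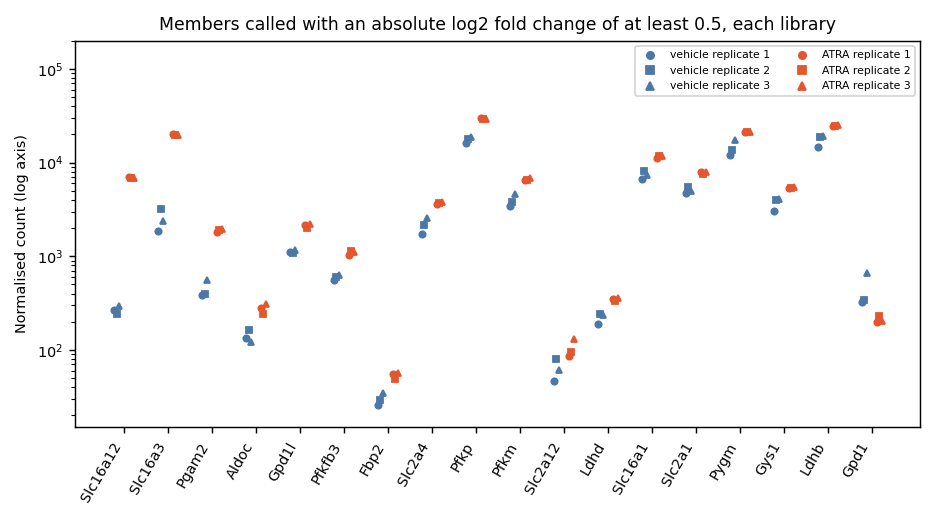
Normalised count (log axis) in each library for the 18 genes called with a log2 change of at least 0.5 in either direction, vehicle in blue and ATRA in orange, with a marker shape for each replicate number. Slc16a12 lies between 240 and 295 in vehicle and between 6768 and 7006 under ATRA, while Gpd1 is the only gene shown whose ATRA libraries lie below vehicle.

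Transcripts of glucose carriers were higher under ATRA for 3 of 4 genes. Slc2a1 encodes GLUT1, the carrier that predominates in the fetal heart, and had normalised counts of 4703, 5441 and 4936 in the vehicle libraries and 7940.2, 7485 and 7852 in the ATRA libraries. The groups did not overlap, and Slc2a1 rose 1.54-fold, from 5027 ± 377 to 7759 ± 241 (log2 0.63 ± 0.06, adjusted p = 0.00028). Slc2a4, the insulin-responsive carrier GLUT4 of adult muscle and heart, had normalised counts of 1738, 2170.1 and 2552 in the vehicle libraries and 3598, 3667 and 3783 in the ATRA libraries. Its highest vehicle value was in replicate 3, still below every ATRA library. Slc2a4 rose 1.71-fold (log2 0.79 ± 0.12, adjusted p = 0.002). Slc2a12, a minor glucose carrier of muscle and heart, had normalised counts of 46.5, 80.7 and 60.9 in the vehicle libraries and 87.2, 96.05 and 130.1 in the ATRA libraries, with the nearest values of the groups close together (log2 0.74 ± 0.24, adjusted p = 0.042). This call was lost without vehicle replicate 1 (adjusted p = 0.091), without ATRA replicates 1, 2 or 3 (0.063, 0.091 and 0.15), without a low-count filter (0.052), by library total alone (0.062) and with array weights (0.069). Slc2a8, an intracellular carrier, was not called (log2 0.23 ± 0.16, adjusted p = 0.29), but was called higher without vehicle replicate 3 (log2 0.41, adjusted p = 0.013).

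Slc2a1 stood at 65.00 ± 4.88 FPKM in vehicle and 100.3 ± 3.12 under ATRA, and Slc2a4 at 27.7 ± 5.25 and 47.4 ± 1.21. Slc2a4 made up 29.78% ± 3.73 of their sum in vehicle and 32.1% ± 0.89 under ATRA, and the groups overlapped (exact two-sided permutation test, p = 0.4). The summed FPKM was 1.59-fold higher under ATRA.

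At the hexokinase step, which traps glucose as glucose 6-phosphate, the 2 genes went in opposite directions. Hk1, the hexokinase of most tissues, had normalised counts of 17573, 18661 and 21165 in the vehicle libraries and 23624, 23891 and 24328 in the ATRA libraries. Every ATRA library was above vehicle, and Hk1 rose 1.25-fold (log2 0.33 ± 0.07, adjusted p = 0.011), a call lost without ATRA replicate 3 (adjusted p = 0.053). Hk2, the insulin-responsive hexokinase of muscle and heart, had normalised counts of 2906, 2983 and 3181 in the vehicle libraries and 2112, 2159.6 and 2305 in the ATRA libraries. All 3 ATRA libraries were below all vehicle libraries, and Hk2 was 1.38-fold lower (log2 -0.46 ± 0.06, adjusted p = 0.00071). Hk2 was called lower in all 16 alternatives. Its share of the summed Hk1 and Hk2 FPKM was 24.22%, 23.6% and 22.51% in vehicle and 14.73%, 14.87% and 15.47% under ATRA, a difference of -8.41 percentage points (exact two-sided permutation test, p = 0.1). The sum of both genes was 1.13-fold higher. Gpi, which converts glucose 6-phosphate to fructose 6-phosphate, rose 1.35-fold (log2 0.44 ± 0.07, adjusted p = 0.0016).

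All 3 phosphofructokinase genes, which encode the main regulated step of glycolysis, were higher. Pfkp, the platelet-type subunit, had normalised counts of 16384, 17844 and 18566 in the vehicle libraries and 30288, 29529.9 and 29438 in the ATRA libraries. Pfkm, the muscle subunit, had normalised counts of 3431, 3808 and 4640.3 in the vehicle libraries and 6504, 6452 and 6846 in the ATRA libraries. In both genes the groups were well separated, with vehicle replicate 3 the highest of its group. Pfkp rose 1.69-fold (log2 0.76 ± 0.06, adjusted p = 0.00011) and Pfkm 1.67-fold (log2 0.75 ± 0.10, adjusted p = 0.001). Pfkl, the liver-type subunit, rose 1.2-fold (log2 0.26 ± 0.05, adjusted p = 0.0034), and by library total alone its log2 change was 0.15 (adjusted p = 0.026). Pfkp was the most abundant per length, with 209 ± 13.2 FPKM in vehicle and 353 ± 5.54 under ATRA, against 35.1 ± 5.49 and 58.5 ± 1.90 for Pfkm and 41.4 ± 1.04 and 49.7 ± 0.83 for Pfkl. Pfkm made up 12.25% ± 1.12 of the sum in vehicle and 12.68% ± 0.44 under ATRA, with overlapping groups (exact two-sided permutation test, p = 0.6). The step total was 1.62-fold higher. In the GRCr8 table Pfkm overlaps Senp1, which was not called (log2 0.06 ± 0.08, adjusted p = 0.58).

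The PFKFB enzymes make and break down fructose 2,6-bisphosphate, the activator of phosphofructokinase. Pfkfb3, the form with the highest kinase activity, had normalised counts of 556, 605 and 636 in the vehicle libraries and 1035, 1128 and 1121 in the ATRA libraries. The groups did not overlap, and Pfkfb3 rose 1.83-fold (log2 0.87 ± 0.07, adjusted p = 0.00012). Pfkfb2, the heart form, had normalised counts of 313, 319 and 301 in the vehicle libraries and 371, 413 and 377 in the ATRA libraries. It rose 1.24-fold (log2 0.31 ± 0.08, adjusted p = 0.019), a call lost by library total alone (log2 0.20, adjusted p = 0.084) and without ATRA replicates 2 (0.09) or 3 (0.061). Pfkfb4, a form known from testis and tumours, had normalised counts of 48.4, 52.1 and 50.02 in the vehicle libraries and 44.1, 50.5 and 43.4 in the ATRA libraries and was not called (log2 -0.13 ± 0.17, adjusted p = 0.59). The share of Pfkfb2 in the summed FPKM of the 3 genes was 32.05%, 30.72% and 28.77% in vehicle and 24.91%, 25.16% and 23.89% under ATRA. The groups did not overlap, with a difference of -5.86 percentage points (exact two-sided permutation test, p = 0.1).

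Aldolase splits fructose 1,6-bisphosphate into triose phosphates. The main row of Aldoa, the muscle and general form, rose 1.31-fold, from 6597 ± 353 to 8643 ± 146 (log2 0.39 ± 0.05, adjusted p = 0.0011), while the second row of the same symbol, at 235 ± 13.4 and 238 ± 10.4, was not called (log2 0.02 ± 0.10, adjusted p = 0.9). Aldoc, the brain form, had normalised counts of 136, 163 and 122 in the vehicle libraries and 282, 244 and 313 in the ATRA libraries. All ATRA libraries were above vehicle, and Aldoc rose 2.00-fold (log2 0.99 ± 0.15, adjusted p = 0.0016), although it made up only 2.04% ± 0.36 of aldolase FPKM in vehicle and 3.08% ± 0.39 under ATRA. Tpi1, triosephosphate isomerase, rose 1.18-fold (log2 0.24 ± 0.06, adjusted p = 0.021), a call lost without vehicle replicate 2 (adjusted p = 0.065), without ATRA replicates 1, 2 or 3 (0.075, 0.078 and 0.091) and by library total alone (log2 0.13, adjusted p = 0.13). In the GRCr8 table Tpi1 overlaps Spsb2, which was lower (log2 -0.62 ± 0.16, adjusted p = 0.016).

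Below the triose phosphates, 1 of 6 genes was called. Pgam2, the muscle phosphoglycerate mutase, had normalised counts of 383, 394 and 559 in the vehicle libraries and 1802, 1897 and 1932 in the ATRA libraries. Vehicle replicate 3 was the highest of its group, and every ATRA library was more than 3 times higher still. Pgam2 rose 4.21-fold, from 445 ± 98.5 to 1877 ± 67.2 (log2 2.09 ± 0.14, adjusted p = 3.2e-05). Its general counterpart Pgam1 had normalised counts of 20794, 21628 and 22071 in the vehicle libraries and 19926, 19838 and 19849.7 in the ATRA libraries. All ATRA values of Pgam1 were below vehicle, but the difference was not called (log2 -0.11 ± 0.05, adjusted p = 0.12). It was called lower by library total alone (log2 -0.22, adjusted p = 0.01) and without vehicle replicate 1 (0.035).

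Per length, Pgam1 stood at 428 ± 12.9 FPKM in vehicle and 396 ± 0.95 under ATRA, and Pgam2 at 18.2 ± 4.01 and 76.5 ± 2.74. Pgam2 thus made up 3.64%, 3.6% and 4.93% of mutase FPKM in vehicle and 15.62%, 16.37% and 16.62% under ATRA, a difference of 12.15 percentage points (exact two-sided permutation test, p = 0.1). The summed mutase FPKM was 1.06 times the vehicle level. The other 4 genes were not called. Gapdh, glyceraldehyde 3-phosphate dehydrogenase, had 754 ± 17.9 FPKM in vehicle and 852 ± 9.79 under ATRA (log2 0.18 ± 0.07, adjusted p = 0.08), Eno1, the general enolase, 814 ± 19.7 and 859.8 ± 8.88 (log2 0.08 ± 0.06, adjusted p = 0.35), and Pkm, pyruvate kinase, 299.8 ± 22.01 and 342 ± 4.17 (log2 0.19 ± 0.07, adjusted p = 0.059). Gapdh was called higher without vehicle replicates 1 (adjusted p = 0.039) or 3 (0.018), with array weights (0.02) and by DESeq2 (0.0035), and Pkm without vehicle replicate 1 (0.004), with array weights (0.01) and by DESeq2 (0.032). Eno3, the muscle enolase, was not called (log2 0.10 ± 0.07, adjusted p = 0.27), and its share of enolase FPKM was 1.49% ± 0.06 in vehicle and 1.52% ± 0.11 under ATRA. Gapdh, Eno1, Pgam1, Tpi1, Aldoa, Pkm and Ldha have near-identical copies in rodent genomes, and since the handling of multi-mapping reads is not given in the sources used here, their values are uncertain.

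**Figure D3:**
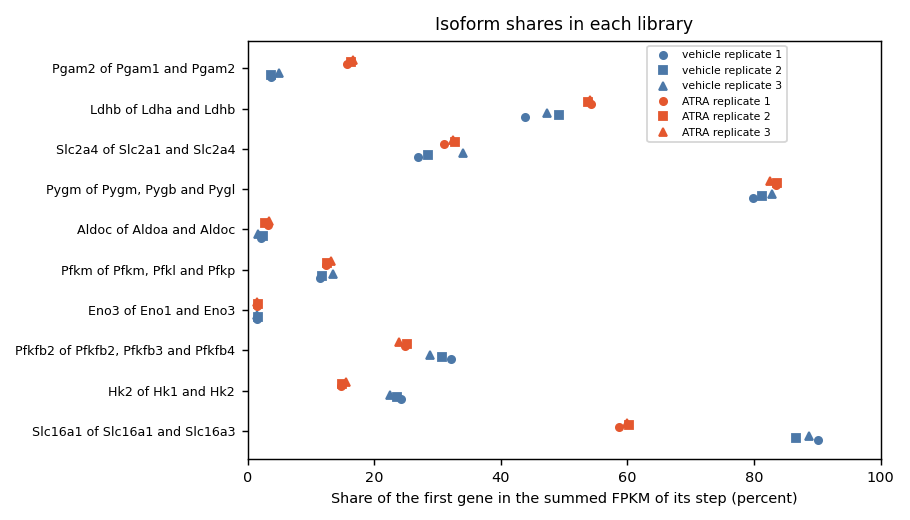
Share of the first-named gene in the summed FPKM of its step (percent, x axis) in each library for the 10 isoform sets (y axis), vehicle in blue and ATRA in orange. The Slc16a1 share lies between 86.62% and 90.11% in vehicle and between 58.69% and 60.22% under ATRA, whereas the Slc2a4, Pfkm, Pygm and Eno3 shares overlap between the groups.

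Of the lactate dehydrogenases, Ldhb and Ldhd were higher and Ldha was not called. Ldhb, the heart-type subunit, had normalised counts of 14798, 18546 and 19375 in the vehicle libraries and 24867, 24507 and 25143 in the ATRA libraries. Vehicle replicate 1 was lowest, and all ATRA libraries were above vehicle. Ldhb rose 1.41-fold (log2 0.51 ± 0.10, adjusted p = 0.0053). Ldha, the muscle-type subunit, had normalised counts of 37029.6, 37388 and 42263 in the vehicle libraries and 40963, 41264 and 41737 in the ATRA libraries. Vehicle replicate 3 exceeded every ATRA library (log2 0.09 ± 0.07, adjusted p = 0.35), and without that replicate Ldha was called higher (log2 0.15, adjusted p = 0.029). The Ldhb share of the summed Ldha and Ldhb FPKM was 43.86%, 49.23% and 47.26% in vehicle and 54.27%, 53.72% and 54.08% under ATRA. The difference was 7.24 percentage points (exact two-sided permutation test, p = 0.1). That Ldhb held the larger part under ATRA is true of FPKM only. By mean normalised count, which is not divided by length, Ldha stayed above Ldhb under ATRA (41321.5 against 24839). Ldhd, the mitochondrial D-lactate dehydrogenase, had normalised counts of 188, 245 and 236 in the vehicle libraries and 354, 337 and 358 in the ATRA libraries and rose 1.57-fold (log2 0.66 ± 0.12, adjusted p = 0.0039).

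In glycogen synthesis, 2 of 5 genes were higher. Gys1, the muscle glycogen synthase, had normalised counts of 3021, 4019 and 4102 in the vehicle libraries and 5402, 5386 and 5483 in the ATRA libraries. Vehicle replicate 1 was the lowest library, and the ATRA libraries were above all 3. Gys1 rose 1.46-fold (log2 0.56 ± 0.11, adjusted p = 0.0055). Pgm1, which interconverts glucose 1-phosphate and glucose 6-phosphate, rose 1.23-fold (log2 0.31 ± 0.07, adjusted p = 0.0081), and by library total alone its log2 change was 0.20 (adjusted p = 0.033). Gyg1, the glycogenin primer (log2 0.23 ± 0.10, adjusted p = 0.094), Gbe1, the branching enzyme (log2 -0.23 ± 0.10, adjusted p = 0.1), and Ugp2, which makes UDP-glucose (log2 0.12 ± 0.06, adjusted p = 0.16), were not called. Gyg1 was called higher without vehicle replicate 3 (adjusted p = 0.042), and Gbe1 lower without vehicle replicate 1 (0.047) and by library total alone (log2 -0.34, adjusted p = 0.025).

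Glycogen phosphorylases, which release glucose 1-phosphate, were higher for 2 of 3 genes. Pygm, the muscle form, had normalised counts of 12025, 13769.9 and 17257 in the vehicle libraries and 21167, 21342 and 21422 in the ATRA libraries. Vehicle replicate 3 lay nearest the ATRA libraries, which were close together. Pygm rose 1.48-fold (log2 0.59 ± 0.12, adjusted p = 0.0061) and Pygb, the brain form, 1.36-fold (log2 0.45 ± 0.08, adjusted p = 0.0039). Pygl, the liver form, was not called (log2 -0.38 ± 0.15, adjusted p = 0.086) and was called lower without vehicle replicate 3 (adjusted p = 0.027) and by library total alone (0.038). Pygm was the main form per length, with 166 ± 30.7 FPKM in vehicle and 246 ± 1.50 under ATRA. It made up 81.33% ± 1.45 of phosphorylase FPKM in vehicle and 83.23% ± 0.58 under ATRA, with overlapping groups (exact two-sided permutation test, p = 0.2).

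None of the 4 pentose phosphate genes was called by limma, edgeR or DESeq2, and 2 of the 4 had an unadjusted limma p under 0.05. All 4 had less in vehicle replicate 3 than vehicle replicates 1 and 2 had on average, as had the fibroblast and epicardial marker sums. Pgd, the second dehydrogenase of the oxidative branch, was at 13651 ± 1176 in vehicle and 13994 ± 87.8 under ATRA (log2 0.04 ± 0.07, adjusted p = 0.68). Tkt, transketolase, had normalised counts of 10638, 8150.2 and 7599 in the vehicle libraries and 7742, 7698 and 7525 in the ATRA libraries. Taldo1, transaldolase, had normalised counts of 5141, 3788 and 3508 in the vehicle libraries and 3276, 3318 and 3376 in the ATRA libraries. In both genes vehicle replicate 1 was highest and vehicle replicate 3 lowest of the vehicle libraries. Tkt overlapped between the groups (log2 -0.18 ± 0.11, adjusted p = 0.23), whereas all ATRA values of Taldo1 were below vehicle (log2 -0.30 ± 0.13, adjusted p = 0.098). Without vehicle replicate 3, Tkt (log2 -0.28, adjusted p = 0.035) and Taldo1 (log2 -0.41, adjusted p = 0.012) were called lower. Taldo1 was also called lower by library total alone (0.038) and with array weights (0.022). Rpia, ribose 5-phosphate isomerase, was not called (log2 0.27 ± 0.10, adjusted p = 0.071).

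The glycerol 3-phosphate shuttle carries electrons from cytosolic NADH to mitochondria, and all 3 of its genes were called, in different directions. Gpd1, the cytosolic dehydrogenase, had normalised counts of 323, 339 and 668 in the vehicle libraries and 197, 233 and 206 in the ATRA libraries. Vehicle replicate 3 was far above the other 2, and all ATRA libraries were below vehicle. Gpd1 was 2.09-fold lower (log2 -0.98 ± 0.26, adjusted p = 0.018). Without vehicle replicate 3 the log2 change was -0.65 (adjusted p = 0.0012), and the call was lost without ATRA replicates 1 (0.069) or 3 (0.064). Gpd1l, the cytosolic paralog prominent in heart, had normalised counts of 1115, 1090.3 and 1179 in the vehicle libraries and 2152, 2010.0 and 2191 in the ATRA libraries. All ATRA libraries were above vehicle, and Gpd1l rose 1.88-fold (log2 0.91 ± 0.06, adjusted p = 3.2e-05). Gpd2, the mitochondrial dehydrogenase, was 1.32-fold lower, from 216 ± 4.91 to 163 ± 8.17 (log2 -0.40 ± 0.10, adjusted p = 0.014), a call lost without ATRA replicates 1 (0.059) or 2 (0.06). Per length, Gpd1l stood at 12.1 ± 0.49 FPKM in vehicle and 22.7 ± 1.02 under ATRA, above Gpd1 at 4.26 ± 1.87 and 2.03 ± 0.18. Fbp2, the muscle fructose bisphosphatase, was scarce, with normalised counts of 26.1, 29.5 and 34.8 in the vehicle libraries and 54.9, 49.5 and 57.5 in the ATRA libraries. It rose 1.79-fold (log2 0.83 ± 0.20, adjusted p = 0.012), a call lost without ATRA replicates 1 (0.05) or 3 (0.056).

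**Figure D4:**
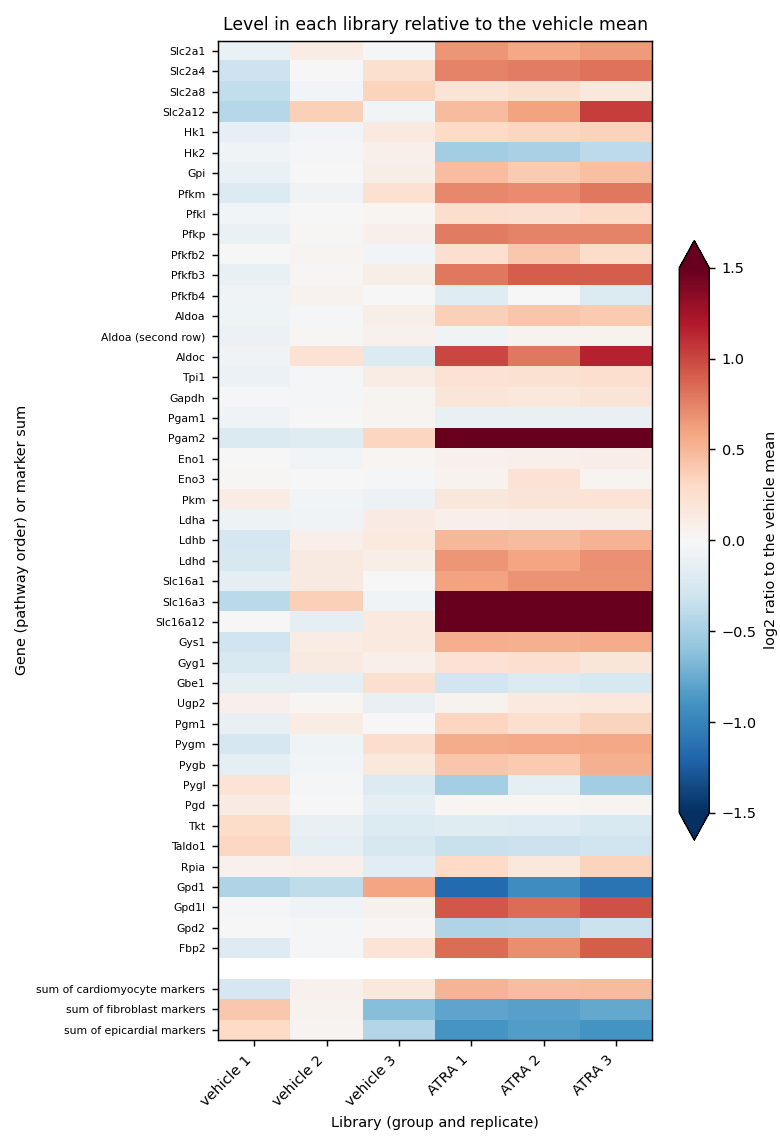
Level of each gene in each library (columns) as a log2 ratio to the mean of the vehicle libraries (colour, held at 1.5 at either end), in pathway order, with the summed cardiomyocyte, fibroblast and epicardial markers at the foot. Within vehicle, replicate 3 has higher Gpd1, Pygm and Pfkm and lower Tkt, Taldo1 and fibroblast markers than replicate 1.

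Other genes of these pathways were counted from 7 lists. Of 96 tested, 27 were higher and 22 lower, where 20.3% and 18.9% of all genes were called. By library total alone 18 were higher and 27 lower, where 13.4% and 28.8% of all genes were called. Leaving out a library gave 18 to 30 higher, with 18 without ATRA replicate 1, 2 or 3. It gave 13 to 25 lower, with 14 without vehicle replicate 2, and 13 and 14 without ATRA replicates 1 and 2. Of all genes, 13.1% were higher and 12.6% lower without ATRA replicate 1, and 26.3% and 23.7% without vehicle replicate 3. Among 11 other genes of glycolysis and glucose transport, 1 was higher and 3 lower, and 2 were higher without vehicle replicate 2. Slc2a3, which encodes the high-affinity carrier GLUT3, had normalised counts of 478, 366 and 232 in the vehicle libraries and 65.7, 89.98 and 73.7 in the ATRA libraries. Vehicle replicate 3 was the lowest of its group, and the ATRA libraries were lower again. Slc2a3 was 4.69-fold lower (log2 -2.17 ± 0.26, adjusted p = 0.00055). Adpgk, the ADP-dependent glucokinase, was 1.75-fold lower (log2 -0.80 ± 0.11, adjusted p = 0.0011), and Bpgm, bisphosphoglycerate mutase, rose 1.33-fold (log2 0.41 ± 0.06, adjusted p = 0.0018). Eno2, the neuronal enolase, was 1.19-fold lower (log2 -0.26 ± 0.06, adjusted p = 0.015), a call lost without vehicle replicate 2 (adjusted p = 0.054) and without ATRA replicates 1 (0.068) or 2 (0.071).

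Of 15 genes of pyruvate entry into mitochondria, 10 were higher and 1 lower, against 20.3% and 18.9% of all genes. The list joins pyruvate carriers and pyruvate dehydrogenase with its kinases and phosphatases, so the count gives no direction for pyruvate entry. Pdk2, Pdk3 and Pdk4, which inactivate the enzyme, were among the 10, and the 1 lower was Pdp1. The count depended on single libraries and on the scaling, as did that of all genes. Without ATRA replicate 1, 2 or 3, 5 were higher, and 13.1% of all genes were higher without ATRA replicate 1. Without vehicle replicate 3, 3 were lower, against 23.7% of all genes. By library total alone 5 were higher and 3 lower, against 13.4% and 28.8% of all genes. Pdk3, a kinase that inactivates pyruvate dehydrogenase, had normalised counts of 800.4, 860.2 and 842 in the vehicle libraries and 2156, 2055 and 2186 in the ATRA libraries. The groups were far apart, and Pdk3 rose 2.56-fold (log2 1.35 ± 0.06, adjusted p = 3.2e-06). Pdk4, the kinase known to respond to fasting and fatty acids, rose 1.95-fold (log2 0.97 ± 0.10, adjusted p = 0.00036), and Pdk2 1.32-fold (log2 0.41 ± 0.13, adjusted p = 0.032). The Pdk2 call was lost without vehicle replicate 2 (adjusted p = 0.09), without ATRA replicates 1, 2 or 3 (0.095, 0.074 and 0.11) and by library total alone (0.076). Pdk1 was not called (log2 0.04 ± 0.09, adjusted p = 0.78). Pdha1, the catalytic subunit of the same complex, rose 1.56-fold (log2 0.64 ± 0.08, adjusted p = 0.00067), and Pdp1, the phosphatase that reactivates it, was 1.32-fold lower (log2 -0.41 ± 0.07, adjusted p = 0.003). In vehicle replicate 3, 13 of the 15 genes exceeded the average of vehicle replicates 1 and 2.

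**Figure D5:**
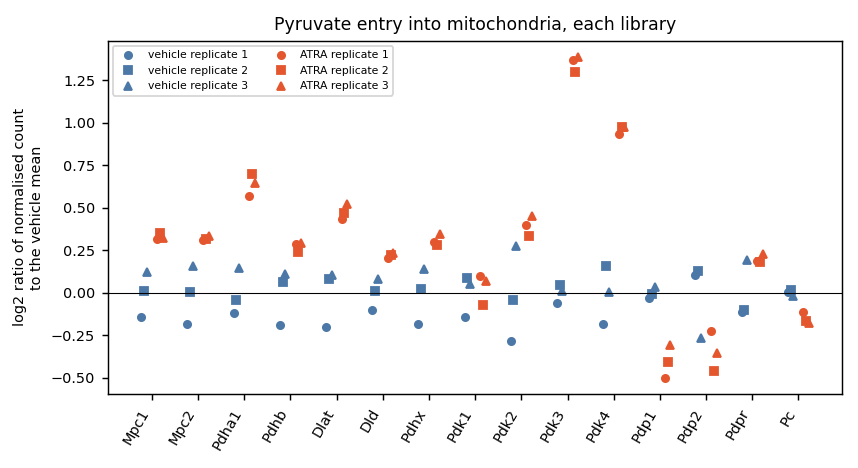
Log2 ratio of the normalised count to the vehicle mean (y axis) in each library for the 15 genes of pyruvate entry into mitochondria (x axis), vehicle in blue and ATRA in orange. Pdk3 and Pdk4 have the highest ATRA values, and Pdp1 lies below vehicle in all 3 ATRA libraries.

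Of 10 other lactate and monocarboxylate genes, 2 were higher and 4 lower, against 20.3% and 18.9% of all genes. Bsg, the basigin chaperone that MCT1 and MCT4 need to reach the membrane, rose 1.72-fold, from 29262 ± 3059 to 50317 ± 499 (log2 0.79 ± 0.08, adjusted p = 0.00033). Slc16a10, a carrier of aromatic amino acids, rose 2.4-fold (log2 1.28 ± 0.16, adjusted p = 0.00079). Slc16a7, the high-affinity pyruvate carrier MCT2, had normalised counts of 105, 77.3 and 35.9 in the vehicle libraries and 19.6, 14.2 and 6.50 in the ATRA libraries. Its levels were low and spread widely within both groups, which did not overlap. Slc16a7 was 5.41-fold lower (log2 -2.34 ± 0.48, adjusted p = 0.0069), and Slc16a6, a carrier of ketone bodies and taurine, 1.8-fold lower (log2 -0.84 ± 0.14, adjusted p = 0.0029).

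Among 20 other glycogen genes 8 were higher and 1 lower, against 20.3% and 18.9% of all genes. Without ATRA replicate 1 or 3, 5 were higher, and without vehicle replicate 1 or 2, 2 were lower. Of all genes, 13.1% were higher without ATRA replicate 1 and 16.9% lower without vehicle replicate 1. Ppp1r3b, a subunit that targets protein phosphatase 1 to glycogen, had normalised counts of 781, 801 and 1104 in the vehicle libraries and 2962, 3153 and 3008 in the ATRA libraries. All ATRA libraries were above vehicle, of which replicate 3 was the highest. Ppp1r3b rose 3.4-fold (log2 1.78 ± 0.12, adjusted p = 4.6e-05). Stbd1, a glycogen-binding protein, rose 1.61-fold (log2 0.70 ± 0.09, adjusted p = 0.001), and Phkg2, a catalytic subunit of phosphorylase kinase, 1.29-fold (log2 0.37 ± 0.06, adjusted p = 0.0032). Pgm2, a phosphopentomutase, was 1.75-fold lower (log2 -0.79 ± 0.13, adjusted p = 0.0021). Of 7 other pentose phosphate genes, Rbks, ribokinase, rose 2.39-fold (log2 1.26 ± 0.17, adjusted p = 0.0011) and Rpe, ribulose phosphate epimerase, was 1.24-fold lower (log2 -0.31 ± 0.09, adjusted p = 0.029). The Rpe call was lost without vehicle replicates 1 (adjusted p = 0.056) or 2 (0.074) and without ATRA replicates 1, 2 or 3 (0.11, 0.058 and 0.085). Pgk1, Hkdc1, Phka2, Prps1, G6pc1, G6pc2 and Mlxipl were not analysed here.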

How the data were processed

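Poly(A) RNA of 3 vehicle and 3 ATRA libraries was sequenced, per the labels' protocols. STAR 2.7.3a, Trim Galore 0.6.4, DESeq2 1.32.0, HTSeq 0.11.2 and build mRatBN7.2 stand in the submitters' processing notes. Not given in the sources used here are the annotation release, whether counting used strand, and how multi-mapping reads were handled. Per the file headers, the deposited table holds normalised counts, a signal for which the authors divided reads by a size factor, and FPKM values by the authors, which were a constant multiple of it for each gene. It also holds, per the file headers, the authors' log2 fold change with its SE, the score of their test, and p-values raw and adjusted. All normalised counts were whole multiples of a step for each library (tolerance 1e-08), which gave back the reads; for ATRA replicate 2 the step of 1.011 is hard to tell from rounding. Samples were grouped by their titles. The main test was limma 3.58.1 (R 4.3.3) on log2(normalised count + 1) with a variance trend, for genes at 10 or more in at least 3 libraries, with Benjamini-Hochberg adjustment over 13110 genes. This scale understates the change of low genes. "Called" means an adjusted p under 0.05, and errors are the SE for log2 values and the SD of 3 libraries otherwise. The test was run on simulated counts with the same spread in both groups. The larger spread among the vehicle libraries was thus not covered.

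Values in every library are given for members called with a log2 change of at least 0.5 in either direction and for members of isoform shares that moved by 5 points or more. Of other lists up to 4 called genes with the smallest adjusted p were named, with any of the Pdk genes and Txnip. Members and lists were chosen with earlier results of these data known. Motifs were searched in RefSeq promoters of GRCr8. Alternatives were pseudocounts of 0.5 and 5, filters, scalings, array weights, edgeR 4.0.16 and DESeq2 1.42.0 on the recovered reads, a replicate block and leaving out each library. Python used numpy 2.4.6, pandas 2.3.3, scipy 1.17.1 and matplotlib 3.10.9. No count intervals are given, since the spread between libraries exceeds counting error at this depth. Erythroid markers are not reported here.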

Additional observations from a re-analysis of the deposited data

How the results depend on the processing

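Over the member rows and 16 alternatives, 668 comparisons kept the direction and the side of the threshold, 22 lost the call, 20 gained it and 9 changed sign. For the other named genes the numbers were 436, 24 lost and 3 changed sign. The changes of sign concerned uncalled genes near 0. By library total alone they were Eno1 (-0.0289), Eno3 (-0.00727), Ldha (-0.0185), Pgd (-0.069), Pdk1 (-0.0731) and the second row of Aldoa (-0.0897, and -0.00633 with upper-quartile scaling). When a library was left out, the log2 change ranged from -0.0274 to 0.055 for that row of Aldoa, from -0.0248 to 0.0999 for Pgd, from -0.0355 to 0.0871 for Pdk1 and from -0.111 to 0.0022 for Txnip, and the Eno3 share difference from -0.04 to 0.07 points (-0.01 without vehicle replicate 3).

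Genes called over the whole table were 2667 higher and 2483 lower, and 1763 and 3775 by library total alone. Leaving out a library gave 1665 to 3398 higher and 1636 to 3061 lower genes, most without vehicle replicate 3. For the member rows the ranges were 20 to 29 higher and 1 to 6 lower, with 7 lower by library total alone, and for the other pathway genes 18 to 30 higher and 13 to 25 lower. edgeR called 25 member rows higher and 3 lower, DESeq2 27 and 3, and array weights, whose estimation stopped before it converged, 26 and 4. The causes were not tested.

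Replicate numbers gave no sign of pairing: the correlation of deviations between same-numbered libraries was 0, -0.103 and -0.013, and no library correlated best with its own number. So few libraries cannot tell whether the experiment was paired. With the replicate number as a block, 25 member rows were higher and 3 lower, 2302 genes were higher and 2135 lower in all, and Rpe lost its call (adjusted p = 0.054). Fbp2 was not tested with a filter of 50.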

Other observations

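Of 11 genes of gluconeogenesis and of the polyol, fructose and hexosamine routes, 1 was higher and 5 lower, where 20.3% and 18.9% of all genes were called. Leaving out ATRA replicate 1, ATRA replicate 2 or vehicle replicate 2 left 1 gene lower, and leaving out ATRA replicate 3 left 2. Without ATRA replicate 1, 12.6% of all genes were lower. By library total alone 0 were higher and 6 lower, where 13.4% and 28.8% of all genes were called. Of the 11 genes of these routes, 10 had less in vehicle replicate 3 than vehicle replicates 1 and 2 had on average. The same held for 12 of the 13 fibroblast markers tested. Gfpt1 and Gfpt2 encode the first enzyme of the hexosamine route. Gfpt2 had normalised counts of 986, 592 and 374 in the vehicle libraries and 292, 241 and 275 in the ATRA libraries. Vehicle replicate 1 stood above the rest, and the groups did not overlap. Gfpt2 was 2.42-fold lower (log2 -1.16 ± 0.30, adjusted p = 0.017), a call lost without vehicle replicate 2 (adjusted p = 0.053) and without ATRA replicates 1, 2 or 3 (0.05, 0.068 and 0.056). Gfpt1 was 1.28-fold lower (log2 -0.34 ± 0.09, adjusted p = 0.021), a call lost without vehicle replicate 2 (0.071) and without ATRA replicates 1, 2 or 3 (0.082, 0.056 and 0.069). Uap1, which makes UDP-N-acetylglucosamine, was 1.63-fold lower (log2 -0.68 ± 0.14, adjusted p = 0.0076). G6pc3, the general glucose 6-phosphatase, rose 1.18-fold (log2 0.24 ± 0.05, adjusted p = 0.0088), a call lost by library total alone (log2 0.13, adjusted p = 0.078) and without ATRA replicate 2 (0.05). The part of the fibroblast markers in these results was not tested.

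Of 22 regulators of glucose metabolism, 4 were higher and 7 lower, against 20.3% and 18.9% of all genes. Leaving out a library gave 3 to 5 higher and 5 to 7 lower. Scaling by library total alone gave 3 and 8, where 13.4% and 28.8% of all genes were called. Tbc1d4, the Akt substrate that governs GLUT4 traffic, had normalised counts of 557, 603 and 723 in the vehicle libraries and 1477, 1557 and 1492 in the ATRA libraries. All ATRA libraries were above vehicle, and Tbc1d4 rose 2.4-fold (log2 1.27 ± 0.10, adjusted p = 7.1e-05). Myc, a transcription factor that activates glycolytic genes, had normalised counts of 1731, 1441 and 1507 in the vehicle libraries and 710.4, 704 and 579 in the ATRA libraries. All ATRA libraries were below vehicle, and Myc was 2.35-fold lower (log2 -1.23 ± 0.10, adjusted p = 0.00011). Epas1, the hypoxia-inducible factor HIF-2 alpha, was 2.03-fold lower (log2 -1.02 ± 0.12, adjusted p = 0.00051), and Esrrg, a nuclear receptor of oxidative metabolism, 1.69-fold lower (log2 -0.75 ± 0.08, adjusted p = 0.00026). Txnip, a glucose-induced inhibitor of glucose uptake, was not called (log2 -0.07 ± 0.08, adjusted p = 0.54).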
